A study of Mus musculus with 16 samples.

Results

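Transcripts of 7 transcription factors that act on axon growth were followed across embryonic sensory ganglia: the SoxC factors Sox4, Sox11 and Sox12 and the Krüppel-like factors Klf4, Klf6, Klf7 and Klf9. They were taken by symbol from a list drawn up with earlier results of these data known, and are 7 of the 24421 gene symbols counted. All 7 passed the filter on low counts, as did 15641 genes in all. Lumbar dorsal root ganglia, which hold the cell bodies of sensory neurons, came from C57BL/6 mouse embryos at embryonic day 13.5 and were sequenced from polyadenylated RNA in 16 libraries, 4 in each group. KO_alpha3 embryos were importin α3 -/-, and KO_beta embryos carried a knockout of the 3′UTR of importin β1. WT_alpha3 and WT_beta were the wild types that accompany each line. The series asks what these importins do in peripheral sensory neurons, and its design text pools the 8 wild types for both knockouts because of a gender effect. Each library is called by its group and its title's number. Separate embryos, litters and sex are not labelled, so a p-value reflects the spread among these samples alone, some of which may be technical.

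SoxC factors share a DNA-binding domain of the HMG box type and turn on genes of neuronal differentiation, and in dorsal root ganglia Sox11 and Sox4 are known to act in neuron survival, axon growth and the response to nerve injury. Krüppel-like factors bind GC-rich DNA through zinc fingers and fall on opposite sides of axon growth: Klf6 and Klf7 favour it, while Klf4 and Klf9 restrain it in central neurons. Klf9 responds to thyroid hormone and glucocorticoids.

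In the promoters of the members (RefSeq, GRCm38.p6, 250 bases before to 50 after the RefSeq start site), the GC box that Krüppel-like and related zinc finger factors read was searched for. The letters GGGCGG on either strand occurred in 5 of the 7 promoters, and in 35.9% of the 27025 mouse promoters of the same length. Windows of 28 bases around the nearest match before the start site are shown for these 5 genes, since they include Sox11, Klf6 and Klf7, the members that varied most with the globin ratio described further on. Each is written 5′ to 3′ on the strand of its gene, with the GC box or its reverse complement in capitals.
Sox11: gacaactccccCCGCCCcccatctttgc
Sox12: gtgtttacacgGGGCGGccccgcgcgcg
Klf4: agaaaggcaggGGGCGGggcctggcggc
Klf6: ggtaccgtgggGGGCGGagctccaagct
Klf7: cgcgcaaaacgGGGCGGagggagggagt
The windows lie at chr12:27342853-27342880 on the minus strand for Sox11, chr2:152398127-152398154 on the minus strand for Sox12, chr4:55532560-55532587 on the minus strand for Klf4, chr13:5861415-5861442 on the plus strand for Klf6 and chr1:64121590-64121617 on the minus strand for Klf7. The capitals begin 151 bases before the start site in Sox11, 97 in Sox12, 101 in Klf4, 63 in Klf6 and 217 in Klf7. The Klf7 window lies within the GENCODE gene given below, whose annotated start is upstream of the RefSeq start used here. Sox12 and Klf4 each held 4 matches, some of them overlapping, and 1 of those in Sox12 lies after the start site, Sox11 held 2, and Klf6 and Klf7 held 1 each. The CACCC box, a second site of this family (CACCC on either strand, in 56.7% of all promoters), occurred 2 times in Sox11, 3 times in Klf7 and 1 time in Klf9. A core Sox site (ACAAAG on either strand, in 18.7% of all promoters) had no match in the 7 promoters. The CCAAT box (CCAAT on either strand, in 37.9% of all promoters) occurred 4 times each in Sox4 and Klf6, 3 times in Klf9 and 1 time each in Sox11 and Sox12. No match of 1 motif overlapped a match of another in these genes. These matches describe letters and are not sites shown to be bound.

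By the GENCODE annotation of GRCm38 (mm10), Sox4 lies at chr13:28948919-28953713, Sox11 at chr12:27334264-27342574 and Sox12 at chr2:152393611-152398063, all on the minus strand and each in 1 exon. Klf4 lies at chr4:55527143-55532466 and Klf7 at chr1:64029447-64122282, both on the minus strand, and Klf6 at chr13:5861482-5870394 and Klf9 at chr19:23141226-23168134, both on the plus strand. The opposite-strand gene Gm26735 covers 54.6% of the exonic bases of Sox4. Klf7 is overlapped by the opposite-strand genes Gm13748 and Gm26649, and the larger of these overlaps covers 39.3% of its exonic bases. The joint cover was not computed. Whether counting used strand is not given in the sources used here, and the values of Sox4 and Klf7 may hold reads of those genes and are uncertain to that extent.

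Library totals ran between 19682595 and 26873361 counts. The targeted transcript Kpna4, which encodes importin α3, lay between 0.619 and 1.13 CPM (read counts divided by library totals that TMM has adjusted) in KO_alpha3, against 69.5 to 81.4 CPM in the 8 wild types. Kpnb1, which encodes importin β1, averaged 530 ± 23.2 CPM in KO_beta (SD, n = 4), against 437 ± 49.1 CPM in the 8 wild types (SD, n = 8). It averaged 514 ± 89.3 CPM in KO_alpha3 (SD, n = 4), so the higher mean is not particular to KO_beta. A 3′UTR deletion need not remove reads over the rest of the transcript. All 20 listed sensory neuron genes passed the filter. The libraries also held markers of neighbouring tissues, with summed levels of 16.1 to 130 CPM for a spinal cord list and 377 to 10300 CPM for an erythroid list. WT_alpha3 45 was highest in a sympathetic ganglion list, WT_alpha3 79 in erythroid and endothelial lists, WT_beta 399 in epidermis and macrophage lists and WT_beta 401 in muscle, spinal cord and fibroblast lists. These 4 wild types were left out together in 1 alternative, while KO_alpha3 75, highest in a cartilage list at 393 CPM, stayed in it. Y-linked transcripts were present in all WT_alpha3 and KO_beta libraries, in KO_alpha3 50 and 75, and in none of WT_beta beyond a summed 1.15 CPM. WT_alpha3 against WT_beta, and KO_beta against WT_beta, therefore cannot be told apart from a sex difference. In whole ganglia, fewer cells of a type and less RNA per cell cannot be told apart.

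Per kilobase of exon, the SoxC transcripts stood above the Krüppel-like ones. Sox12, the least studied SoxC factor, was the highest of the 7 in all 16 libraries, at 75.0 ± 5.08 CPM per kilobase (SD, n = 16). Sox4 followed at 51.0 ± 5.79 CPM per kilobase and Sox11 at 45.5 ± 11.9 CPM per kilobase, and these neighbours exchanged places between libraries. Klf6 averaged 27.3 ± 4.83 CPM per kilobase and ranked 3 or 4, passing above the lowest SoxC factor in 1 library, KO_beta 411, at 35.1 against 34.5 CPM per kilobase for Sox11. Klf7 at 6.19 ± 1.47 and Klf4 at 4.59 ± 1.03 CPM per kilobase shared ranks 5 and 6, and Klf9 was lowest in every library at 1.08 ± 0.194 CPM per kilobase. The members also differed in how much they varied. The SD of log2 CPM over the 16 libraries was 0.35 for Sox11, 0.35 for Klf7 and 0.27 for Klf6, larger than in 92.2%, 88.6% and 85.8% of the 500 genes nearest to each in level. For Sox12 it was 0.10, larger than in 13.2% of such genes.

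**Figure D1:**
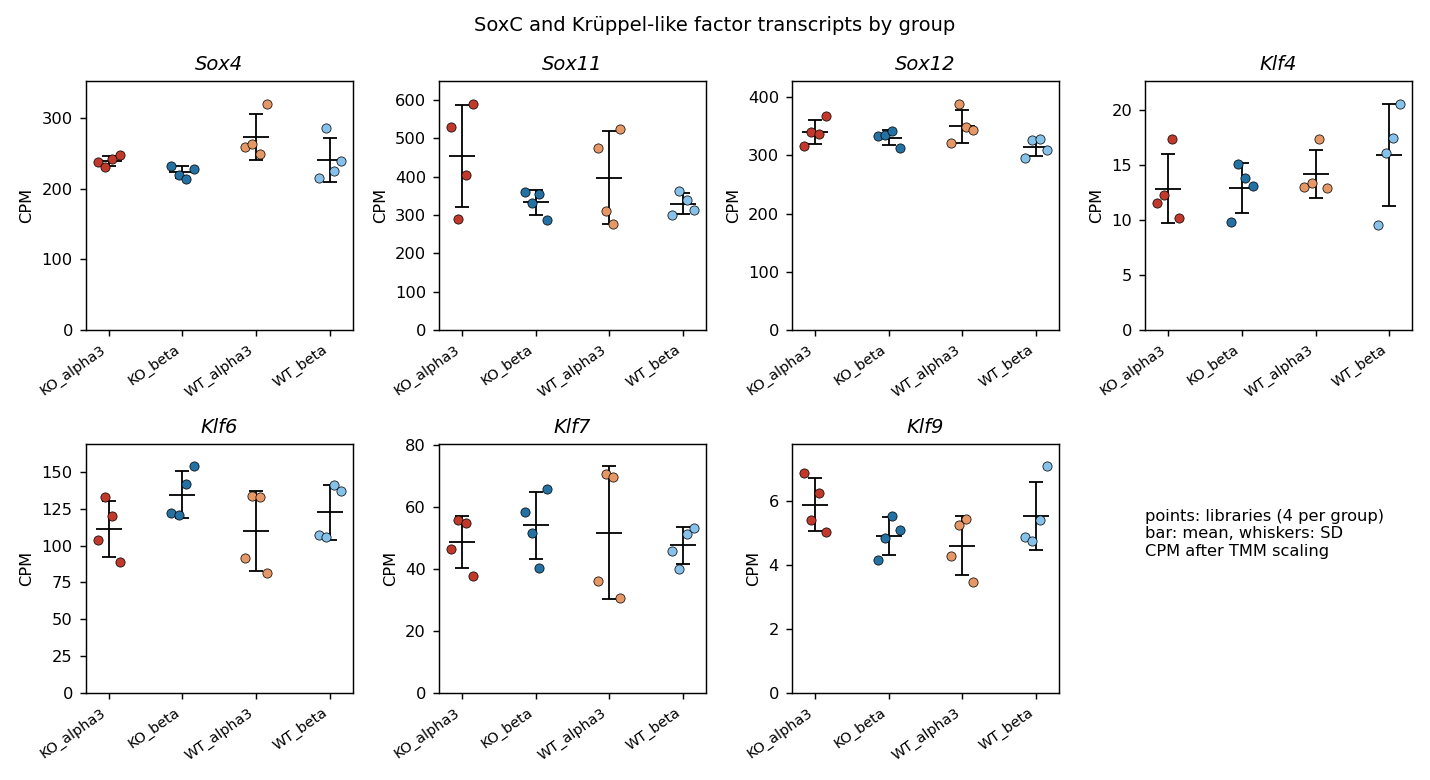
CPM of each of the 7 transcripts (vertical axis, from 0) in the 4 libraries of each group, with the group mean as a bar and the SD as whiskers. Sox11 spans 276 to 590 CPM, and each knockout group overlaps the 8 wild types in every member. Sox4 lies at 231 to 248 CPM in KO_alpha3 and at 214 to 233 CPM in KO_beta. Both ranges are below that of WT_alpha3, 250 to 321 CPM, but overlap the range of the pooled wild types, 216 to 321 CPM. The share of all genes whose groups of 4 separate in this way was not computed.

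None of the 7 transcripts passed the test in importin α3 knockouts. The count is 0 of 7, where 1 of all 15641 genes passed (0.00639%) in edgeR's quasi-likelihood test with Benjamini-Hochberg adjustment at 0.05, and 0 of the 7 reached an unadjusted p under 0.05, as 10.8% of all genes did. DESeq2 called 125 genes in the same comparison and 0 members. The knockouts share their wild types with KO_beta, so the pair of comparisons is not independent.

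Sox11, a driver of axon growth in injured sensory neurons, had 530, 289, 405 and 590 CPM in KO_alpha3 42, 50, 75 and 81. In the wild types it had 474, 311, 276 and 525 CPM in WT_alpha3 45, 54, 55 and 79, and 300, 362, 340 and 313 CPM in WT_beta 399, 401, 410 and 415. KO_alpha3 libraries 42 and 81 were above every wild type and library 50 was below all but 1 of them, so the groups overlap. Libraries 42 and 81 also lacked Y-linked transcripts, at a summed 0.32 and 0.0418 CPM, against 148 and 133 CPM in 50 and 75. Within KO_alpha3 high Sox11 therefore cannot be told apart from a sex difference. WT_alpha3 45 and 79, also high in Sox11, held 121 and 129 CPM of Y-linked transcripts. The mean of Sox11 was 454 ± 134 CPM in KO_alpha3 (SD, n = 4), against 363 ± 89.3 CPM in the 8 wild types (SD, n = 8). The log2 fold change was 0.32 ± 0.19 (SE), with an adjusted p of 0.569 by edgeR, and an interval of 2 SE on each side ran from -0.06 to 0.70. Leaving out the 4 wild types highest in other tissues' markers, WT_alpha3 45 and 79 and WT_beta 399 and 401, gave 0.58 ± 0.19 (SE) with an adjusted p of 0.187 by edgeR. That fit removes the 3 wild types with the highest ratio of embryonic globins, described further on, and keeps KO_alpha3 42 and 81, which are also high in it, so the groups are then unbalanced in that ratio.

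Sox4, the close relative of Sox11, had 238, 231, 243 and 248 CPM in KO_alpha3 42, 50, 75 and 81. In the wild types it had 259, 264, 250 and 321 CPM in WT_alpha3 45, 54, 55 and 79, and 216, 286, 225 and 239 CPM in WT_beta 399, 401, 410 and 415. All 4 KO_alpha3 libraries lay below the wild-type median of 254 CPM and none lay below the lowest wild type. The log2 fold change was -0.10 ± 0.09 (SE), with an adjusted p of 0.732 by edgeR. Against WT_alpha3 alone it was -0.19 ± 0.09 (SE), with an adjusted p of 0.843 by edgeR. Sox12 averaged 340 ± 21.2 CPM in KO_alpha3 (SD, n = 4), against 333 ± 28.4 CPM in the 8 wild types (SD, n = 8), a log2 fold change of 0.03 ± 0.07 (SE) with an interval of -0.10 to 0.17.

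Of the growth-promoting Krüppel-like factors, Klf6 averaged 112 ± 19.0 CPM in KO_alpha3 (SD, n = 4), against 116 ± 22.8 CPM in the 8 wild types (SD, n = 8). Klf7 averaged 48.5 ± 8.41 CPM in KO_alpha3, against 49.5 ± 14.7 CPM in the 8 wild types. For neither did the difference exceed the spread between libraries, with log2 fold changes of -0.06 ± 0.15 and -0.03 ± 0.21 (SE). Of the growth-restraining factors, Klf4 had 11.6, 12.3, 17.4 and 10.2 CPM in KO_alpha3 42, 50, 75 and 81, against a range of 9.55 to 20.6 CPM in the 8 wild types. Klf9 had 6.87, 5.40, 6.23 and 5.01 CPM in the same KO_alpha3 libraries, against 3.45 to 7.07 CPM in the 8 wild types. All KO_alpha3 values of Klf4 and of Klf9 fell inside the wild-type range. The log2 fold changes were -0.22 ± 0.19 (SE) for Klf4 and 0.22 ± 0.16 (SE) for Klf9, with adjusted p-values of 0.732 and 0.663 by edgeR.

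**Figure D2:**
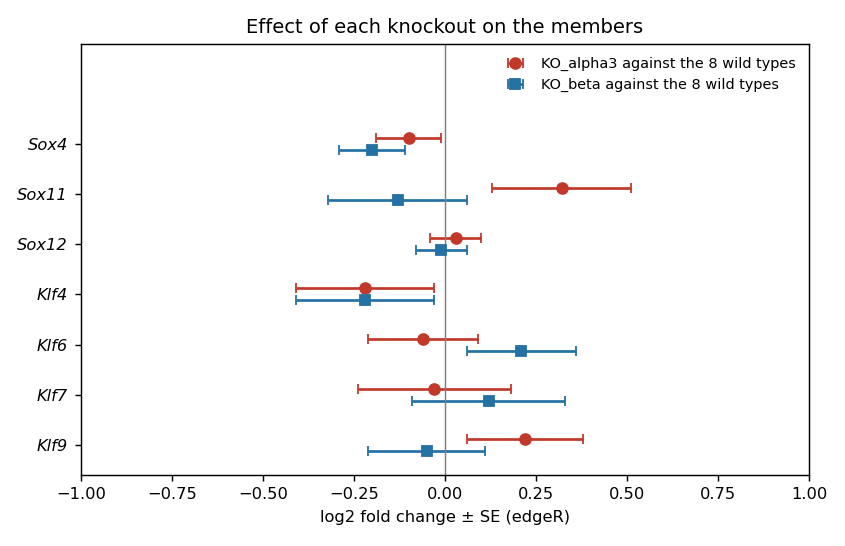
Log2 fold change with its SE (horizontal axis) of each member in KO_alpha3 (red circles) and KO_beta (blue squares), each against the 8 wild types. The estimates lie between -0.22 and 0.32 and none passed the adjusted threshold of 0.05.

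The importin β1 3′UTR knockouts gave 0 of 7 members past the threshold, where 0 of all 15641 genes passed (0%) by edgeR with Benjamini-Hochberg adjustment. At an unadjusted p under 0.05, edgeR listed 349 of all genes (2.23%), Sox4 alone of the members, and DESeq2 called 1 gene and 0 members after adjustment. Sox4 had 233, 220, 214 and 229 CPM in KO_beta 398, 402, 406 and 411. All 4 lay below the wild-type median of 254 CPM, and library 406 lay below every wild type. The mean was 224 ± 8.72 CPM in KO_beta (SD, n = 4), against 257 ± 34.1 CPM in the 8 wild types (SD, n = 8). The log2 fold change was -0.20 ± 0.09 (SE), with an adjusted p of 0.932 by edgeR. Against WT_beta alone, which averaged 241 ± 31.5 CPM and differed from KO_beta in Y-linked transcripts, it was -0.11 ± 0.09 (SE).

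Klf6 had 122, 121, 142 and 154 CPM in KO_beta 398, 402, 406 and 411. In the wild types it had 91.9, 134, 133 and 81.6 CPM in WT_alpha3 45, 54, 55 and 79, and 107, 106, 141 and 137 CPM in WT_beta 399, 401, 410 and 415. All 4 KO_beta libraries were above the wild-type median and 2 were above every wild type. The log2 fold change was 0.21 ± 0.15 (SE), with an adjusted p of 0.932 by edgeR, and it turned to -0.02 ± 0.11 (SE) without those 4 wild types. Klf7 had 58.2, 51.5, 40.2 and 65.8 CPM in the same KO_beta libraries, against a range of 30.4 to 70.5 CPM in the 8 wild types, all inside that range. Its log2 fold change was 0.12 ± 0.21 (SE), which became -0.18 without them. Sox11 averaged 333 ± 32.5 CPM in KO_beta (SD, n = 4), against 363 ± 89.3 CPM in the 8 wild types (SD, n = 8), a log2 fold change of -0.13 ± 0.19 (SE) that became 0.10 without them. Sox12, Klf4 and Klf9 had log2 fold changes of -0.01 ± 0.07, -0.22 ± 0.19 and -0.05 ± 0.16 (SE) in KO_beta.

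The difference between the knockout effects, each taken against the wild types of its own line, passed for 0 of 7 members, where 1 of all 15641 genes passed (0.00639%) by edgeR with Benjamini-Hochberg adjustment. No member had an unadjusted p under 0.05, as 1.22% of all genes did, and DESeq2 called 6 genes, none of them a member. Klf9 had the largest difference, 0.53 ± 0.25 (SE) on the log2 scale, with an unadjusted p of 0.0516 and an adjusted p of 0.996. It averaged 5.88 ± 0.835 CPM in KO_alpha3, against 4.59 ± 0.912 CPM in WT_alpha3, and 4.89 ± 0.579 CPM in KO_beta, against 5.52 ± 1.07 CPM in WT_beta (SD, n = 4 each). These levels are the lowest of the 7 members.

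The wild types of the lines, which differ in Y-linked transcripts in every library (105 to 129 CPM in WT_alpha3, against 0 to 1.15 CPM in WT_beta), gave 0 of 7 members past the threshold, where 3 of all genes passed (0.0192%), 1 higher (0.00639%) and 2 lower (0.0128%), by edgeR with Benjamini-Hochberg adjustment. DESeq2 called 32 genes, none of them a member. Sox12 was the 1 member with an unadjusted p under 0.05, as 5.27% of all genes had. It averaged 350 ± 28.2 CPM in WT_alpha3, against 315 ± 15.1 CPM in WT_beta (SD, n = 4 each), a log2 fold change of 0.16 ± 0.07 (SE) with an adjusted p of 0.931 by edgeR. The spread of Sox11 and of Klf7 was wider in WT_alpha3. Sox11 had an SD of 122 CPM in WT_alpha3, against 27.7 CPM in WT_beta, and Klf7 an SD of 21.4 CPM in WT_alpha3, against 5.98 CPM in WT_beta. In WT_alpha3, libraries 45 and 79 were high in Sox11 and low in Klf6 and Klf7, and libraries 54 and 55 were the reverse.

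The spread within groups was then set against the log2 ratio of the embryonic globins Hbb-bh1 and Hbb-y in each library. Hbb-bh1 is known to precede Hbb-y in primitive red cells, so a higher ratio marks blood of an earlier stage. The ratio lay between -7.00 and -3.71, with a gap of 0.86 between -6.03 and -5.17 that left 5 libraries above it. These 5 were KO_alpha3 42 and 81, WT_alpha3 45 and 79 and WT_beta 399, so 4 of them belong to the α3 line and none to KO_beta. Their summed erythroid level ran from 1590 CPM in KO_alpha3 42 to 10300 CPM in WT_alpha3 79. Below the gap it ran from 377 CPM in WT_beta 410 to 3400 CPM in KO_beta 398. These ranges overlap, and the amount of blood was not held fixed in the slopes. KO_alpha3 42 and 81 and WT_beta 399 lacked Y-linked transcripts beyond a summed 0.32 CPM, while WT_alpha3 45 and 79 held them. Age beyond embryonic day 13.5 is not labelled, and the ratio stands in for it without a check.

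Sox11 was higher, and Klf6 and Klf7 were lower, in libraries with a higher globin ratio. These are 3 of the 7 members, 1 higher and 2 lower, where 46.7% of all 15641 genes passed the same slope test (20.5% higher and 26.1% lower) by edgeR with 4 group terms and Benjamini-Hochberg adjustment. The share of members is near that of all genes. DESeq2 called 7488 genes and 4 members, the fourth being Klf4.

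Sox11 ran between 300 and 590 CPM in the 5 libraries above the gap, with a mean of 484 ± 111 CPM (SD, n = 5), against 276 to 405 CPM in the 11 below it, with a mean of 330 ± 39.0 CPM (SD, n = 11). The 4 high values of 474 to 590 CPM all came from the α3 line, and WT_beta 399 at 300 CPM lay within the lower range. The slope was 0.27 ± 0.05 (SE) in log2 CPM per unit of the log2 ratio, with an adjusted p of 0.000404 by edgeR. Leaving out any 1 library gave slopes of 0.25 to 0.31, all 16 past the threshold.

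Klf6 ran between 81.6 and 107 CPM in the 5 libraries above the gap, with a mean of 94.7 ± 10.6 CPM (SD, n = 5), against 106 to 154 CPM in the 11 below it, with a mean of 131 ± 13.2 CPM (SD, n = 11). The ranges overlap through WT_beta 401 at 106 CPM below the gap and WT_beta 399 at 107 CPM above it. Its slope was -0.24 ± 0.03 (SE), with an adjusted p of 1.87e-05 by edgeR, and 0.857% of all genes had a lower p. Leaving out any 1 library gave -0.24 to -0.21, all 16 past the threshold.

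Klf7 ran between 30.4 and 46.2 CPM in the 5 libraries above the gap, with a mean of 39.2 ± 6.72 CPM (SD, n = 5), against 39.8 to 70.5 CPM in the 11 below it, with a mean of 55.5 ± 10.3 CPM (SD, n = 11). The lowest value was in WT_alpha3 79 and the highest in WT_alpha3 54, both wild types of the α3 line. Its slope was -0.30 ± 0.06 (SE), with an adjusted p of 0.000702 by edgeR, and leaving out any 1 library gave -0.33 to -0.23, all 16 past the threshold. The ratio of Sox11 to Klf7 CPM ran from 3.98 in WT_alpha3 55 to 17.3 in WT_alpha3 79, so the widest contrast between these genes lay between wild types of 1 line.

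Klf4 and Klf9, the growth-restraining members, had slopes of -0.18 ± 0.07 and -0.14 ± 0.06 (SE), with adjusted p-values of 0.0524 and 0.0621 by edgeR. Klf4 passed in 2 of the 16 fits that leave out 1 library and Klf9 in 1 of them. Sox4 had a slope of 0.05 ± 0.03 (SE) and Sox12 of -0.02 ± 0.03 (SE), with adjusted p-values of 0.270 and 0.610 by edgeR. Sox12 ran between 296 and 368 CPM above the gap, against 309 to 389 CPM below it, nearly the same range.

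**Figure D3:**
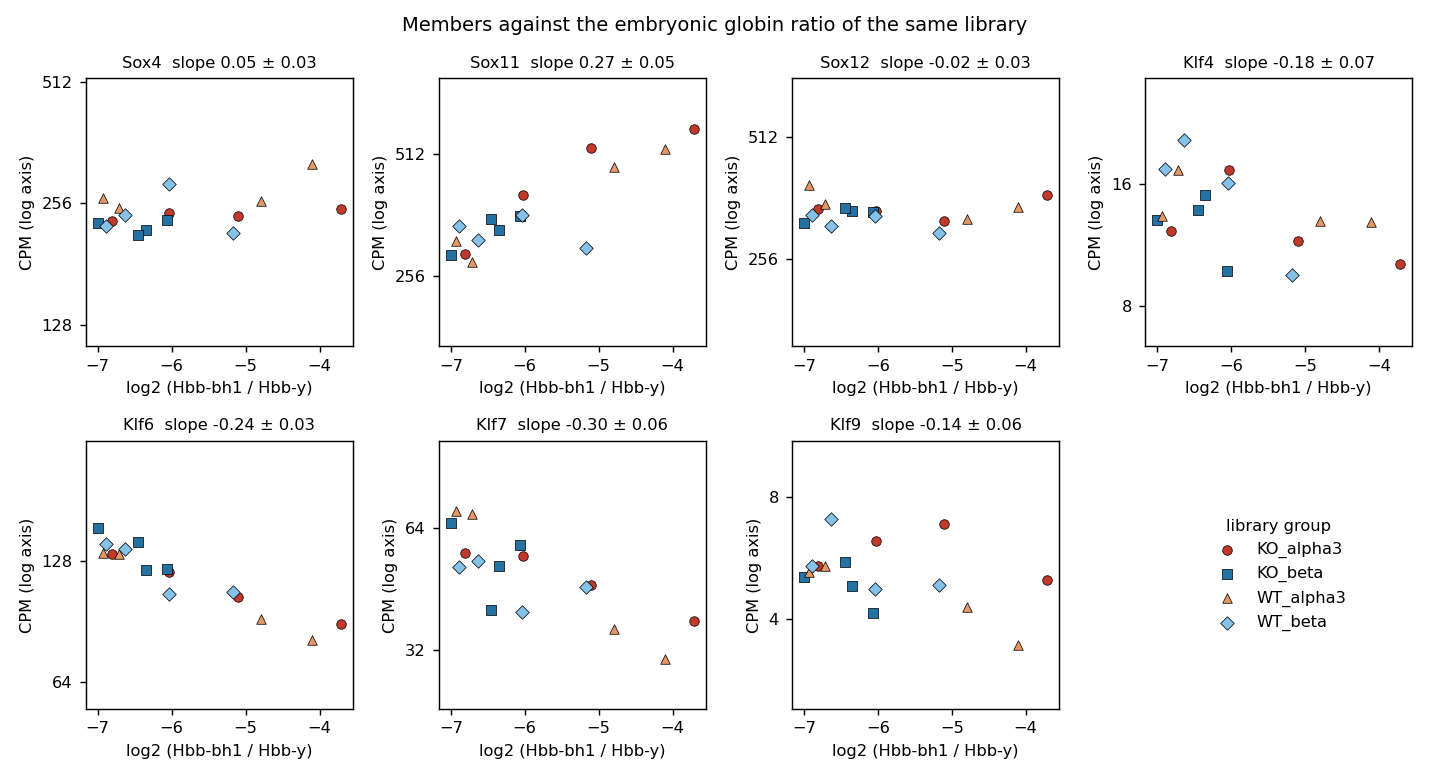
CPM of each member (vertical axis, log scale) against the log2 ratio of Hbb-bh1 to Hbb-y in the same library (horizontal axis), with symbols for the 4 groups and the slope with its SE above each panel. Sox11 rises with the ratio at 0.27 ± 0.05, Klf6 falls at -0.24 ± 0.03 and Klf7 falls at -0.30 ± 0.06.

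The slopes were taken apart by line. In the α3 line alone (8 libraries), Sox11 had a slope of 0.32, Klf6 of -0.23 and Klf7 of -0.33, with adjusted p-values of 0.00109, 0.000784 and 0.00188 by edgeR. In the β1 line alone (8 libraries), where KO_beta libraries span -7.00 to -6.06, the slopes were 0.04, -0.26 and -0.14, with adjusted p-values of 0.864, 0.0835 and 0.629. In a fit of all 16 libraries with a slope for each line, Klf6 passed in the β1 line too, at -0.28 ± 0.06 (SE) with an adjusted p of 0.0278 by edgeR, and no longer did without WT_beta 399, at -0.44 ± 0.09 (SE) with an adjusted p of 0.184. For Sox11 the α3 slope minus the β1 slope was 0.30 ± 0.10 (SE), with an adjusted p of 0.166 by edgeR, and 0.07 ± 0.14 (SE) without WT_beta 399, the 1 library of the β1 line above the gap. For Klf6 the difference was 0.06 ± 0.07 (SE), and 0.22 ± 0.09 (SE) without WT_beta 399, with an adjusted p of 0.936 by edgeR. For Klf7 it was -0.16 ± 0.14 (SE), and 0.02 ± 0.22 (SE) without that library. Klf4, which passed in neither line, had slopes of -0.12 ± 0.07 in the α3 line and -0.52 ± 0.16 in the β1 line (SE). Its difference was 0.40 ± 0.18 (SE), with an adjusted p of 0.259 by edgeR, and 0.14 ± 0.26 (SE) without WT_beta 399. Of all genes, 140 (0.895%) passed the edgeR test of the slope difference, and 2827 (18.1%) had an unadjusted p under 0.05. Without WT_beta 399, 0 (0%) of 15719 genes passed, and 816 (5.19%) had an unadjusted p under 0.05.

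The 11 libraries below the gap were fitted with no group term, so differences between groups enter these slopes. Those of Sox11, Klf6 and Klf7 were 0.38, -0.31 and -0.36, with adjusted p-values of 0.0558, 0.0531 and 0.216 by edgeR. With group terms again and without the 2 libraries farthest from the median ratio, KO_alpha3 81 and WT_alpha3 79, the slopes were 0.30, -0.23 and -0.26, with adjusted p-values of 0.00885, 0.000895 and 0.0248. Without the 4 wild types highest in other tissues' markers they were 0.33, -0.19 and -0.18, and Klf7 no longer passed, at an adjusted p of 0.0663. Cell cycle genes moved with the ratio: all 26 listed genes rose, with a median slope of 0.58, where the median of all genes was -0.005. Their mean log2 CPM ran from 4.79 in WT_alpha3 54 to 6.67 in WT_alpha3 79. With that mean as a covariate, the slopes of Sox11 and Klf6 were 0.18 and -0.12, with adjusted p-values of 0.827 and 0.718 by edgeR, and that of Klf7 turned to 0.07. In that fit 1 of all genes passed, so the ratio and the cell cycle level cannot be told apart in these libraries. Of the 13 spinal cord genes past the filter 5 rose with the ratio and 0 fell, and of the 12 glial genes 0 rose and 7 fell. Of the 7 erythroid genes past the filter, which include Hbb-bh1 and Hbb-y, 4 rose and 0 fell, with a median slope of 0.98. The part of glia and of the amount of blood in the result was not tested. With the spinal cord mean as a covariate the 3 slopes were 0.26, -0.20 and -0.25, all past the threshold.

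The make-up of the SoxC transcripts shifted with Sox11. Per kilobase, Sox11 made up 20.3% of the SoxC sum in WT_alpha3 55 and 34.6% in KO_alpha3 81. Sox12 was the largest part in all 16 libraries, between 37.2% in WT_alpha3 79 and 48.6% in WT_alpha3 54. Sox11 held a larger share than Sox4 in KO_alpha3 42, KO_alpha3 81 and WT_alpha3 45, and a smaller one in the other 13 libraries.

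**Figure D4:**
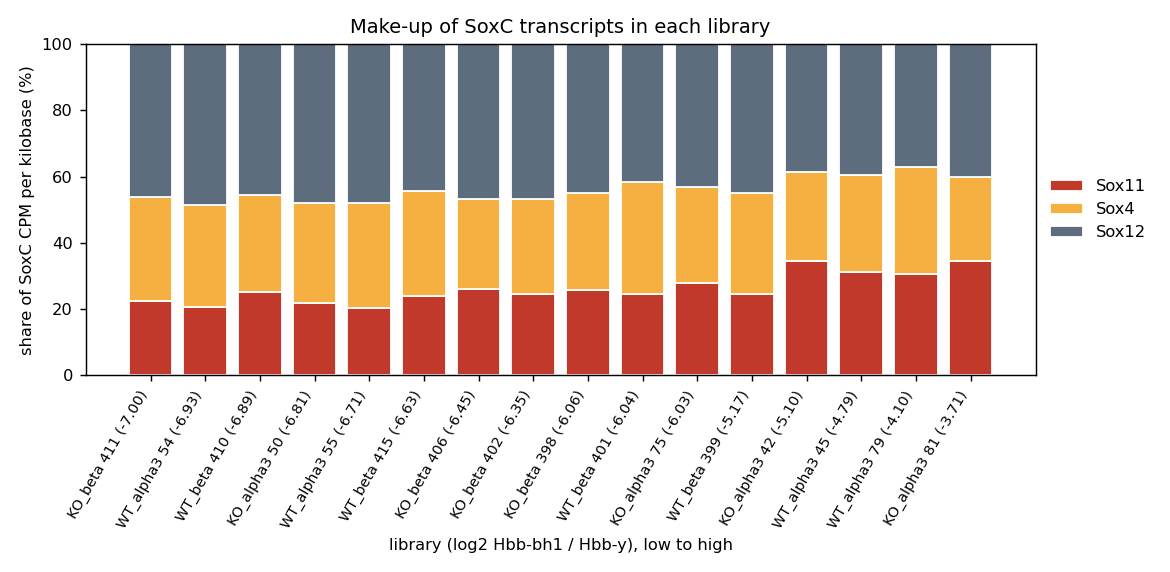
Share of the summed SoxC level (CPM per kilobase, vertical axis in percent) taken by Sox11, Sox4 and Sox12 in each library, ordered from the lowest to the highest globin ratio (in parentheses). Sox11 holds 20.3% to 27.9% in the 11 libraries at the left and 24.5% to 34.6% in the 5 at the right.

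Relatives outside the set were called about as often as all genes when both directions are counted together. Of all genes 46.7% passed, 20.5% higher and 26.1% lower. Of 13 other Sox factors past the filter, 6 rose and 1 fell, with a median slope of 0.16. By direction, that is more rises and fewer falls than the shares of all genes. Sox6, Sox21 and Sox1 rose, with slopes of 0.41 ± 0.10, 1.05 ± 0.26 and 0.81 ± 0.28 (SE), and Sox3 fell at -0.86 ± 0.17 (SE). Sox1 and Sox21 are factors of neural progenitors and averaged 1.53 and 1.68 CPM. Of 12 other Krüppel-like factors, 2 rose and 4 fell, with a median slope of -0.06. Klf10 and Klf8 fell at -0.27 ± 0.04 and -0.26 ± 0.05 (SE), close in size to Klf6 and Klf7, and Klf13 and Klf5 fell at -0.14 ± 0.03 and -0.44 ± 0.11 (SE).

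**Figure D5:**
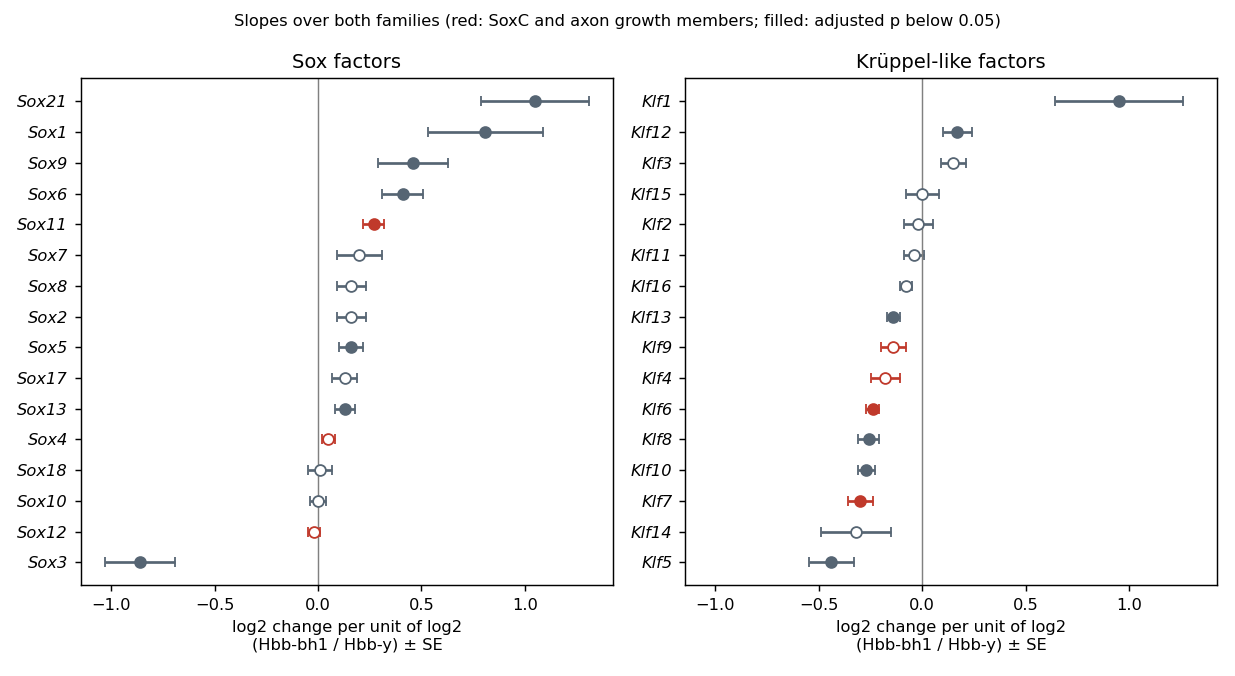
Slope of each Sox factor (left) and Krüppel-like factor (right) past the filter, in log2 CPM per unit of the log2 globin ratio with its SE, members in red and calls at an adjusted p under 0.05 filled. Sox11 rises at 0.27 among 6 other rising Sox factors, and Klf6 and Klf7 fall at -0.24 and -0.30 beside 4 other falling Krüppel-like factors.

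Genes reported as targets of the members were counted in the same fit, to be read against the same shares of all genes. Of 8 reported Klf7 targets, 1 rose and 6 fell, with a median slope of -0.26. The cell cycle inhibitor Cdkn1a fell at -0.47 ± 0.07 (SE), and the growth cone and adhesion genes Gap43 and L1cam fell at -0.27 ± 0.05 and -0.25 ± 0.05 (SE). The 20 sensory neuron genes gave 1 rise and 17 falls, with a median slope of -0.50. Of 11 reported SoxC targets past the filter, 3 rose and 3 fell, with a median slope of -0.04. Neurod1, a factor of early neurons, and Tead2, a factor of the Hippo pathway, rose at 0.96 ± 0.17 and 0.39 ± 0.07 (SE), while Stmn2 and Tubb2b, genes of the axonal cytoskeleton, fell at -0.24 ± 0.05 and -0.19 ± 0.04 (SE).

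Of 34 axon growth and regeneration genes, 5 rose and 17 fell, with a median slope of -0.10. Set and Lin28a rose at 0.18 ± 0.02 and 0.89 ± 0.14 (SE), and Cacna2d2, a calcium channel subunit that limits axon growth, and the cytokine effector Stat3 fell at -0.39 ± 0.06 and -0.26 ± 0.04 (SE). Of 12 genes of glucocorticoid and thyroid hormone response, the hormones that act on Klf9, 1 rose and 6 fell, with a median slope of -0.09. Dio3, which inactivates thyroid hormone, rose at 0.80 ± 0.08 (SE), and the receptor Thra and the corepressor Hr fell at -0.32 ± 0.04 and -0.35 ± 0.05 (SE). Of 19 immediate early genes, 3 rose and 5 fell, a share near the 46.7% of all genes, and of 20 progenitor and Notch genes, 9 rose and 0 fell. In the 4 comparisons between groups, no gene of any of the 22 lists passed the threshold by edgeR. That includes the Y-linked genes Ddx3y, Kdm5d, Eif2s3y and Uty, although their sum separates WT_alpha3 from WT_beta in every library. Between the wild types they had log2 values of 7.64 to 8.71, with an adjusted p of 0.228 by edgeR. The lack of a call in these comparisons therefore does not show that a transcript is unchanged.

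The transcripts most like each member over the 16 libraries, by Pearson correlation of log2(CPM + 1), are given as a description. All libraries enter together, so genes that vary with the globin ratio resemble each other. Sox11 was nearest to Rcor2 (r = 0.986), Dazap1 (0.978) and Insm1 (0.974). Klf6 was nearest to Plxdc2 (0.968), and Klf7 to Hspa4l (0.961). Sox12 was nearest to Ptov1 (0.923), Sox4 to Rgma (0.903), Klf9 to Spop (0.856) and Klf4 to Kif1c (0.779). Within the set, Klf6 and Klf7 had a correlation of 0.79 with each other and of -0.81 and -0.74 with Sox11.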

How the data were processed

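RNA from 16 ganglion libraries was measured by sequencing. The values used are raw counts, 1 whole number of reads for each symbol and library, as the authors deposited them. In no stated order or role, the submitters' processing notes list TopHat2 2.0.10 and HTSeq 0.6.1p1, the build mm10, DESeq2 1.6.3, and for earlier steps cutadapt and bcl2fastq 2.17.1.14. Annotation, strandedness and filtering were not given in the sources used here, and reads shared between near-identical genes stay uncertain. A normalized table deposited beside the counts was not used here.

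The tests used edgeR 4.0.16 under R 4.3.3. Libraries were scaled by TMM, filterByExpr kept genes by a minimum count of 10 and a minimum total of 15, and 2-sided quasi-likelihood tests gave p-values adjusted by Benjamini-Hochberg over all 15641 genes tested. Each knockout was set against the 8 wild types, WT_alpha3 against WT_beta, and the KO_alpha3 effect against the KO_beta effect. A slope on the log2 ratio of Hbb-bh1 to Hbb-y had 4 group terms in the main fit, and no group term in the fit below the gap. CPM are after TMM scaling. Exonic lengths are merged GENCODE vM21 exons and promoters are RefSeq's. The steps were tested on simulated data with planted effects larger than those of the members. Recovery of effects of the members' size was not tested.

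Alternatives were DESeq2 1.42.0 and its size factors, no filter, other sets of libraries, covariates, and each library left out in turn. The members, lists and tests were chosen with earlier results of these data known. The text names the 7 members, up to 4 genes with the lowest p from each of the lists it describes, and the genes nearest to each member. The result of 1 listed gene is not reported here. Library totals of 19682595 to 26873361 counts set the precision, and SD and SE cover the spread between libraries.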

Additional observations from a re-analysis of the deposited data

Results flagged for a closer look

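Klf4 stood at 17.4 CPM in WT_alpha3 55, apart from the other WT_alpha3 libraries, which held 12.9 to 13.4 CPM. The gap to the nearest of them was 0.905 of the range of the group, past Dixon's 95% critical value for 4 samples. It was the 1 value to stand apart in this way among 40 sets of 4 or more libraries examined, and chance gives about 1 in 20.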

How the results depend on the processing

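No member passed the threshold in the 4 comparisons between groups under any alternative run. Counts of all genes moved with the tool: DESeq2 called 125 genes in KO_alpha3, 1 in KO_beta, 32 between the wild types and 6 for the difference of effects. That difference gave 2 genes with no filter and 2 without the 4 wild types highest in other tissues' markers. The wild-type comparison gave 5 with the globin ratio as a covariate. Leaving out 1 library gave 1 to 124 genes in KO_alpha3 (124 without KO_alpha3 50), 2 to 7 between the wild types (7 without KO_alpha3 81) and 1 to 3 for the difference of effects (3 without KO_alpha3 50).

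The globin slope gave 693 genes and 0 members in the β1 line alone, and 293 genes and 0 members below the gap with no group term. It gave 1 gene and 0 members with the cell cycle covariate, where the cause was not tested. It gave 4261 genes without the 4 wild types highest in other tissues' markers and 2991 with the ratio of Hba-x to Hbb-y. Leaving out 1 library gave 3 to 5 members (5 without KO_alpha3 50, when Klf4 and Klf9 passed).

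Signs turned where no call stood, and for 1 called value, the slope of Klf7 with the cell cycle covariate. Against wild types of the same line, log2 values were -0.042 for Sox12 and 0.019 for Klf6 in KO_alpha3, and 0.017 for Sox11 and 0.072 for Sox12 in KO_beta. With the globin ratio as a covariate they were 0.068 for Klf6 and 0.139 for Klf7 in KO_alpha3, 0.047 for Sox11 and 0.000 for Klf7 in KO_beta, and 0.017 for Klf6 in the difference of effects. With a Y-linked covariate Klf9 was at 0.043 in KO_beta. Without the 4 wild types, Sox11, Klf6 and Klf7 were at 0.102, -0.018 and -0.177 in KO_beta and Sox11 at -0.171 between the wild types. With the cell cycle covariate, the slopes of Sox4, Sox12, Klf7 and Klf9 were -0.053, 0.098, 0.066 and 0.007. The slope of Sox12 was 0.001 with no group term, 0.051 without the 4 wild types and 0.046 with Hba-x. Leaving out 1 library gave -0.029 to 0.012 for the slope of Sox12. In KO_alpha3 it gave -0.005 to 0.072 for Sox12, -0.133 to 0.037 for Klf6 and -0.094 to 0.079 for Klf7. In KO_beta it gave -0.035 to 0.018 for Sox12 and -0.126 to 0.023 for Klf9. For the difference of effects it gave -0.193 to 0.013 for Klf6 and -0.148 to 0.048 for Sox4, and between the wild types -0.065 to 0.284 for Klf7.

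The alternatives without the 4 wild types, with spinal cord, fibroblast, endothelial or Y-linked covariates in the slope, with Hba-x and with a slope per line were chosen after seeing the data. The planned ratio of Hba-x to Hba-a1 and Hba-a2 was not run because Hba-a1 and Hba-a2 hold no count. No paired analysis was possible because no library number is shared between groups. Depth bears most on Klf9, the lowest member, with 70 to 172 counts per library.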
